A study of Sus scrofa with 22 samples.

Results

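The fatty acid binding proteins FABP3, FABP4 and FABP5 were followed over 22 Affymetrix porcine arrays of blood mononuclear cells, the lymphocytes and monocytes of peripheral blood, from mini pigs. All probe sets annotated to exactly 1 of these symbols were taken, which gave 4 of the 23999 probe sets that are not array controls, for 3 of the 6765 genes with a symbol of their own. FABP3 and FABP4 had 1 probe set each, and FABP5 had a bright and a dim one. The genes were chosen by symbol, but selected on their log2 levels over the 4 conditions, which were in view, so differences between diets and between times are given as descriptions, with a standard error and without a test. Comparisons of females with males were not part of the rule of choice and were tested, except where stated. Earlier results of these data, among them the FABP4 pattern in females, were known.

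The series asked whether resveratrol, a plant polyphenol, alters gene expression in blood mononuclear cells of pigs on a high-fat diet. At time 0, before the diets, cells came from 5 females and 5 males. After 9 months, cells came from 2 females and 2 males in each of 3 diet groups. The controls ate normal chow with 5% beef tallow, the high-fat group ate chow with 20% beef tallow, and the resveratrol group ate that fatty chow plus a daily 8 mg of resveratrol for each kg of body weight. The labels name 20 pigs, and control female 8 and control male 25 were measured at both times. Time 0 and 9 months differ in the age of the animals and in when blood was drawn, and these cannot be told apart.

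Fatty acid binding proteins are small cytoplasmic proteins that hold a fatty acid in a barrel-shaped pocket and carry it to membranes, enzymes and nuclear receptors. FABP3 is the form best known from heart and skeletal muscle, FABP4 is that of adipocytes and is also made by macrophages, and FABP5 is the epidermal form and is found in macrophages as well. In macrophages FABP4 and FABP5 have been linked to lipid loading and inflammatory signalling, and FABP4 is a classic target gene of the nuclear receptor PPARG.

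The labelled cell type was checked against its markers. All 11 measured T cell markers and all 11 measured monocyte markers had log2 values above 5 on every array. Of the 9 adipocyte markers on the array, 8 were above 5 on every array too, among them the complement protease CFD (11.08 to 12.22) and the lipase LIPE (6.22 to 7.03). The remaining one, ADIPOQ, which encodes adiponectin, was at 3.48 to 4.13 throughout. Markers above 5 on every array were also 3 of 3 erythroid, 4 of 5 platelet and 7 of 10 endothelial genes. The same held for 3 of 4 keratinocyte, 5 of 12 striated muscle and 1 of 6 granulocyte genes. The cutoff of log2 5 therefore does not tell cell types apart. The arrays differed in their spike-in controls: at 9 months, the poly-A controls added before labelling averaged, in log2, 9.93 to 10.61 on 5 arrays and 8.39 to 9.02 on the other 7. At time 0 they averaged 7.58 to 7.85 on 8 arrays and 9.12 to 9.15 on 2, females 6 and 10. The hybridization control BioB was lowest on control male 16 at 9 months (6.79), resveratrol female 22 (6.97) and control female 8 at 9 months (7.0), against at least 7.57 on the other 19 arrays. High-fat male 23 also stood apart, with 8 probe sets raised by over 3 log2 units above every other array, a step seen on no other array among 23999 probe sets. Where leaving out the 3 arrays of lowest BioB moved a diet or time difference of a member by over 1.5 times, both values are given.

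FABP4 was high in the 2 females on the high-fat diet and low on the other 20 arrays. Its log2 intensity was 7.92 in high-fat female 27 and 7.35 in high-fat female 30. The 2 high-fat males had 3.10 and 3.31, as low as animals on the other diets. Each female of that diet was therefore more than 4 log2 units above both males of the same diet. In linear intensity the 2 females had 241 and 163, while the other 20 arrays ran from 7.73 to 13.2.

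In the control group at 9 months FABP4 was 3.24 in female 18, 3.29 in female 8, 3.59 in male 16 and 3.23 in male 25. With resveratrol added to the high-fat diet it was 3.72 in female 21, 3.52 in female 22, 3.70 in male 4 and 3.53 in male 5. At time 0 the 10 arrays ran from 2.95 to 3.37. The resveratrol females thus lay close to the resveratrol males and far below the high-fat females, and the 20 low arrays spanned less than 1 log2 unit. As a yardstick of background, the 6 control probe sets for a bacterial transcript, trpn, gave log2 values of 2.52 to 4.33 (median 3.27) over the arrays. FABP4 on the 20 low arrays lay inside that range, so its folds against them may understate the difference in transcript. FABP4 ranked at the 6.74th to 16.2nd percentile of all probe sets on those arrays, and at the 65.4th to 73.3rd percentile in the high-fat females.

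**Figure D1:**
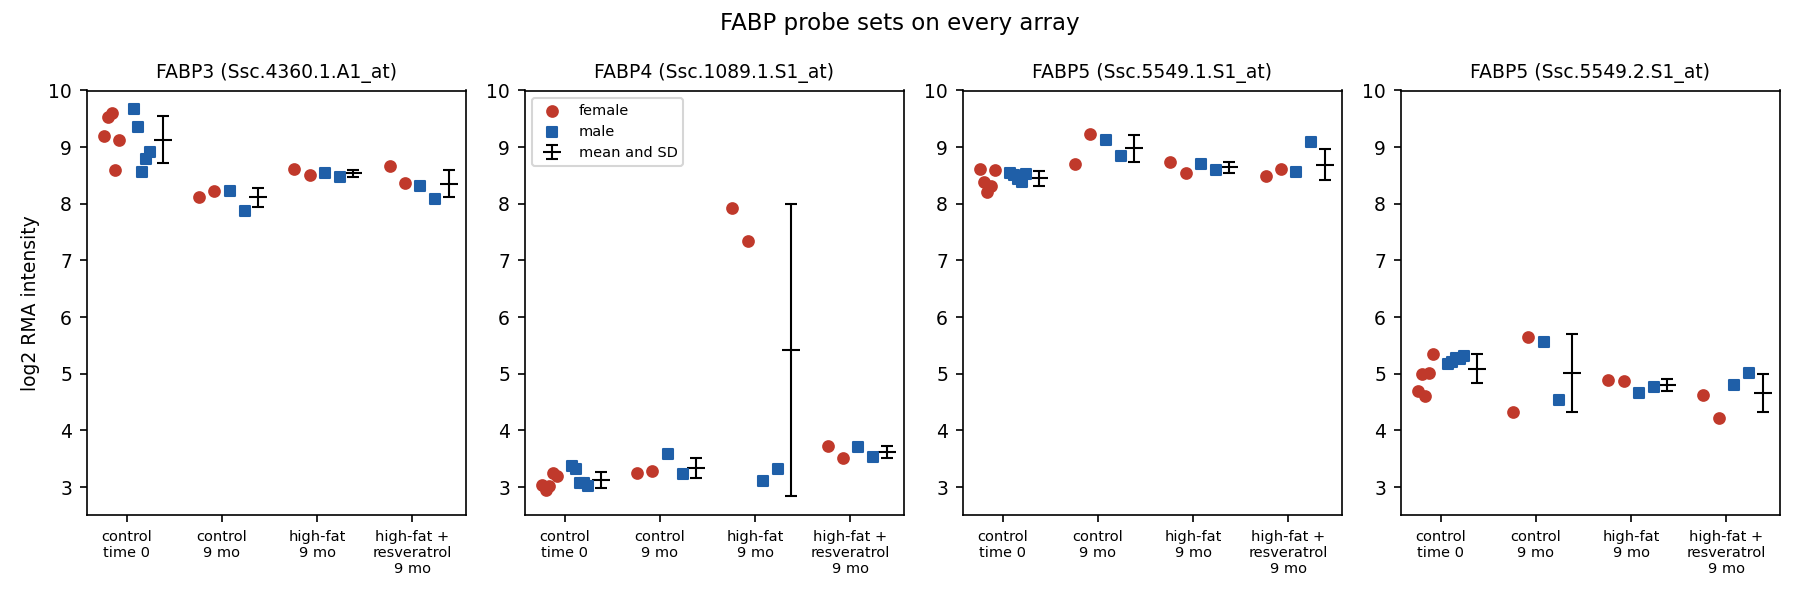
Log2 RMA intensity of the FABP3, FABP4 and FABP5 probe sets on each of the 22 arrays, by condition, with females as circles, males as squares, and the mean and SD of each condition as a black bar. FABP4 stands at 7.35 and 7.92 in the 2 high-fat females and between 2.95 and 3.72 elsewhere, FABP3 is lower in every 9-month control than at time 0, and the bright FABP5 probe set is higher there.

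As group means, FABP4 was 3.13 ± 0.14 (SD, n = 10) at time 0, 3.34 ± 0.17 (SD, n = 4) in controls at 9 months, 5.42 ± 2.57 (SD, n = 4) in the high-fat group, and 3.62 ± 0.11 (SD, n = 4) where resveratrol was added. The high-fat mean describes no animal in the group. Split by sex, high-fat females averaged 7.63 ± 0.40 (SD, n = 2) and high-fat males 3.20 ± 0.15 (SD, n = 2). Within females, high-fat minus control was 4.37 (SE 0.18), 20.6-fold between the means. Resveratrol minus high-fat was -4.01 (SE 0.18), 16.1-fold lower with resveratrol. Both folds are estimates from 2 arrays against 2 and are not bounds. Within males the same differences were -0.21 (SE 0.18) and 0.41 (SE 0.18).

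Averaged over the sexes, high-fat minus control was 2.08 (SE 0.64) and resveratrol minus high-fat was -1.80 (SE 0.64). Both lean on the same 2 arrays: without high-fat female 27 they were 1.32 and -1.04, and without female 30 they were 1.53 and -1.24. Without high-fat male 23, whose array stands apart, they were 2.77 and -2.49. The groups overlapped in both comparisons. Against the controls, high-fat male 26 lay inside their range and male 23 below it, and against resveratrol both high-fat males lay below all 4 animals while both females lay above them. Resveratrol minus control at 9 months was 0.28 (SE 0.64), with 0.36 (SE 0.18) in females and 0.21 (SE 0.18) in males. It was 0.50 without control male 16, the array of lowest BioB, and 0.57 without the 3 arrays of lowest BioB, and ran from 0.11 to 0.57 over all alternatives. In controls, 9 months minus time 0 was 0.21 (SE 0.54), but -0.01 without control male 16 or with the spike-in level as a covariate, and 0.10 without the 3 arrays of lowest BioB. The SEs of 0.64 and 0.54 come from the fit of condition plus sex, whose spread takes in the high-fat split between females and males. Where the high-fat group was not compared, they do not measure the spread of the arrays compared. Within each sex the SE over time was 0.15. The 3 diet comparisons share their groups, so the values stand side by side and are not independent of each other.

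The size of the diet difference in females minus that in males was 4.57 (SE 0.25). With limma, 1 of 17240 probe sets passed for that contrast after Benjamini-Hochberg adjustment (0.00580%), and that probe set was FABP4. FABP4 was chosen with this pattern known, so the call is no separate evidence for it. FABP4 also entered the tested set only through these 2 females, since a probe set had to exceed log2 5 on at least 2 arrays. Without the 3 arrays of lowest BioB the value was 4.42.

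Few other transcripts set the 2 high-fat females apart. Of the 17240 tested probe sets, 105 (0.609%) were higher in both of them than on all 20 other arrays, and 134 were lower. The gap between the lower of the 2 females and the highest other array was 3.62 for FABP4. The next was 0.34, for a probe set with no symbol. Among named genes, chosen after their values were seen, NR4A3, a nuclear receptor induced on cell activation, followed with 0.24, the T cell ligand CD40LG with 0.20 and the signalling inhibitor BAMBI with 0.16. FABP4 was the 1 probe set with a gap above 1 log2 unit.

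**Figure D2:**
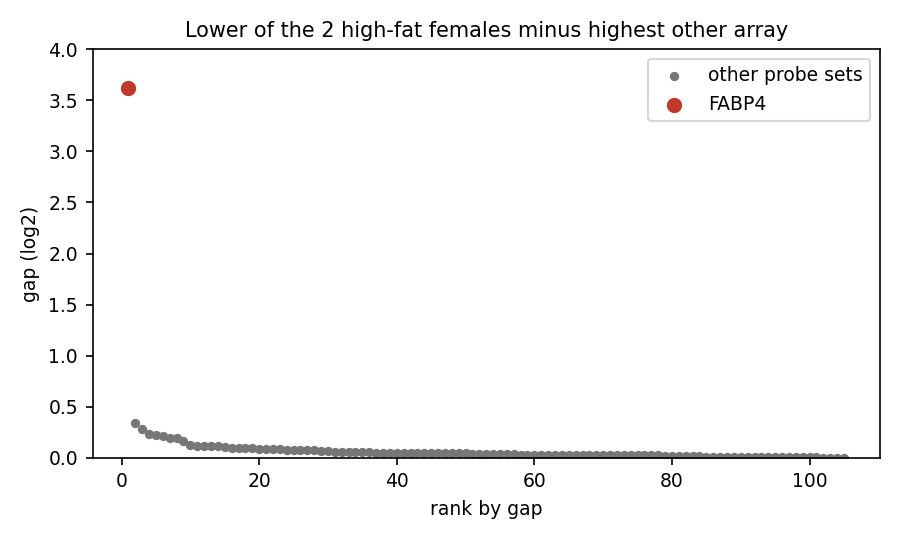
Gap in log2 intensity between the lower of the 2 high-fat females and the highest of the other 20 arrays, for the 105 probe sets where it was above 0, ranked along the horizontal axis. FABP4 has a gap of 3.62 and the next probe set 0.34.

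In mixed cells such as these, more cells of a type and more RNA per cell cannot be told apart. In each of 12 marker lists, no gene was higher in both high-fat females than on all 20 other arrays. That was so for 0.609% of all tested probe sets, and lists of 1 to 12 genes are too short to tell a count of 0 from that share. Genes lower in both were not counted, and the part of cell types in the FABP4 values was not tested. The mean of the 9 adipocyte markers was 6.38 to 6.41 in the 2 females and 6.20 to 6.59 elsewhere, and ADIPOQ was not higher in them. The mean of the 11 monocyte markers was 8.48 to 8.50 in the 2 females, near the low end of the 8.40 to 9.40 seen elsewhere. The 10 endothelial markers averaged 5.92 to 5.93 against 5.75 to 6.33.

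Both high-fat females belonged to the 5 arrays of 9 months with high poly-A spike-ins. The other 3 arrays of that set had low FABP4: 3.31 in high-fat male 26, 3.72 in resveratrol female 21 and 3.23 in control male 25. With the spike-in set as a block, high-fat minus control was 1.65 and resveratrol minus high-fat -1.37. Within the set of high spike-ins, high-fat minus control was 2.96 (3 arrays against 1), and in the other set, which held no high-fat female, -0.27 (1 array against 3).

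FABP4 and FABP5 lie on the same pig chromosome with PMP2, another fatty acid binding protein, between them, and FABP3 lies on another chromosome (gene order of assembly Sscrofa11.1). IMPA1, an enzyme of inositol metabolism and the neighbour of FABP4 on its other side, was 6.34 in high-fat females and 6.53 on the other 9-month arrays by one probe set, and 8.36 and 8.38 by another. FABP5 was likewise 8.64 and 8.80. Neither IMPA1 nor FABP5 shared the step of FABP4. PMP2, the gene next to FABP4 on the side of FABP5, has no probe set under its symbol and was not measured.

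At time 0 FABP4 averaged 3.09 in females and 3.17 in males. All 10 of these values lay inside the range of the trpn controls, so they say nothing of a difference between the sexes before the diets, and no test is given. At 9 months the mean over the 3 diets was 4.84 in females and 3.41 in males. That difference of 1.43 (SE 0.10) is the same 2 high-fat females again and is given as a description.

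No named gene followed FABP4 closely over the 22 arrays. The 5 highest correlations (Pearson r over all arrays) were with C1H9orf50 (0.78), TYK2 (0.74), IFNA1 (0.72), PDE4A (0.70) and KLF9 (0.70). These genes moved little where FABP4 moved much: C1H9orf50 was 7.13 in high-fat females and 6.77 on the other arrays, and TYK2 was 5.28 and 4.67. After the 8 means of condition and sex were subtracted, the highest were RGS16 (0.81), SOCS3 (0.81), MAPRE3 (0.79), PEA15 (0.78) and SLC6A8 (0.78). By Spearman's rho, 0 of the first 5 and 3 of the second 5 were among the top 5. Outside the high-fat females FABP4 lay inside the range of the trpn controls. What remained after subtraction was therefore variation at background level and the difference between those females.

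FABP3, the muscle-type form, was clearly expressed in all animals and fell between time 0 and 9 months. At time 0 its log2 intensity ran from 8.57 to 9.68 over 10 arrays, with a median of 9.16. In the controls at 9 months it was 8.12 in female 18, 8.23 in female 8, 8.23 in male 16 and 7.88 in male 25. Every control at 9 months thus lay below every animal at time 0. The high-fat animals formed a narrow band above the controls, with 8.62 in female 27, 8.50 in female 30, 8.54 in male 23 and 8.48 in male 26. With resveratrol the values spread over 8.67 in female 21, 8.36 in female 22, 8.31 in male 4 and 8.08 in male 5, which overlaps both other diets.

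The order of the FABP3 means was time 0 (9.13 ± 0.41, SD, n = 10), high-fat (8.54 ± 0.06, SD, n = 4), high-fat with resveratrol (8.35 ± 0.24, SD, n = 4) and control at 9 months (8.12 ± 0.16, SD, n = 4). The last 3 lay within 0.42 of each other, and resveratrol overlapped its neighbour on either side. The control decline, 9 months minus time 0, was -1.02 (SE 0.17), a 2.02-fold lower intensity. It was -1.03 (SE 0.26) in females and -1.0 (SE 0.26) in males. In the same pigs it was -1.30 in female 8 (9.53 to 8.23) and -1.02 in male 25 (8.91 to 7.88). This contrast was the broadest of the series: 35.0% of probe sets passed with limma (15.8% higher and 19.1% lower), and in 8.64% every control at 9 months was below every animal of time 0. Array measures moved with time as well. The log2 ratio of 3' over 5' actin signal, a sign of RNA quality, averaged 1.42 ± 0.50 (SD, n = 10) at time 0 and 1.95 ± 0.65 (SD, n = 4) in controls at 9 months, and was 2.36 ± 0.56 (SD, n = 4) on high fat, up to 3.09 in male 23. The poly-A spike-ins averaged 7.98 ± 0.62 (SD, n = 10) at time 0 and 9.14 ± 0.87 (SD, n = 4) in those controls. The part of the actin ratio in the differences over time was not tested. The FABP3 difference was -1.13 to -0.94 over all alternatives, of which 1 had the spike-in level as a covariate.

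High-fat minus control was 0.42 (SE 0.21) for FABP3, a 1.34-fold higher intensity, with all 4 high-fat animals above all 4 controls. In 2.08% of tested probe sets every high-fat animal was higher, and no probe set passed the adjusted threshold in this comparison (0.00%; 1562, or 9.06%, had an unadjusted limma p under 0.05). The difference was 0.38 (SE 0.31) in females and 0.46 (SE 0.31) in males, and 0.53 without the 3 arrays of lowest BioB. Resveratrol minus high-fat was -0.18 (SE 0.21), again with 0.00% of probe sets called (1143, or 6.63%, with an unadjusted p under 0.05), and resveratrol minus control was 0.24 (SE 0.21; 0.00% called, 664, or 3.85%, unadjusted), or 0.38 without the 3 arrays of lowest BioB. FABP3 did not differ detectably between the sexes, with 0.14 (SE 0.20, limma adjusted p = 0.775) at time 0, where 1.07% of probe sets passed, and 0.16 (SE 0.18, limma adjusted p = 0.662) at 9 months, where 6.01% of probe sets passed. With the spike-in set as a block the time 0 difference was 0.02.

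At time 0, FABP3 rose and fell from animal to animal with genes of the cell cycle. A list of 10 measured genes of dividing cells (TOP2A, CCNB1, CCNA2, BIRC5, CDC20, STMN1, PCNA, TYMS, CKS2 and MCM2) was averaged on each array. Over the 10 arrays of time 0, which share 1 chow, FABP3 correlated with that mean at r = 0.89 (permutation p = 0.00108, adjusted p = 0.0356) and rho = 0.93 (permutation adjusted p = 0.0271). FABP3 and the list were chosen with earlier results of these data known, so these p-values are no independent evidence. Over the 12 arrays of 9 months r was 0.83 and rho 0.93, given as a description because these arrays span 3 diets between which FABP3 and the list take the same order. Adjustment pooled the p-values of r and of rho over the 66 relations computed between the FABP3 and FABP5 probe sets and the marker lists. FABP4 and the B cell list were not among them. Leaving out the 2 arrays farthest from the median of the list gave r = 0.81 at time 0 and 0.93 at 9 months.

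High-fat male 23 was the exception at 9 months, with a list mean of 9.63, the highest of that time, beside a FABP3 value of 8.54. Without it r was 0.94 over 11 arrays. With the means of condition and sex subtracted, r was 0.92 at time 0 and 0.59 at 9 months. Within the sets of like spike-ins that held at least 6 arrays, r was 0.96 over 8 arrays of time 0 and 0.92 over 7 arrays of 9 months. The other sets held 2 and 5 arrays, too few for a value. The list itself averaged 9.37 ± 0.25 (SD, n = 10) at time 0, 8.83 ± 0.12 (SD, n = 4) in controls at 9 months, 9.27 ± 0.25 (SD, n = 4) in the high-fat group, and 8.98 ± 0.23 (SD, n = 4) where resveratrol was added, the same order as FABP3. What part the share of dividing cells has in the FABP3 differences was not tested.

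**Figure D3:**
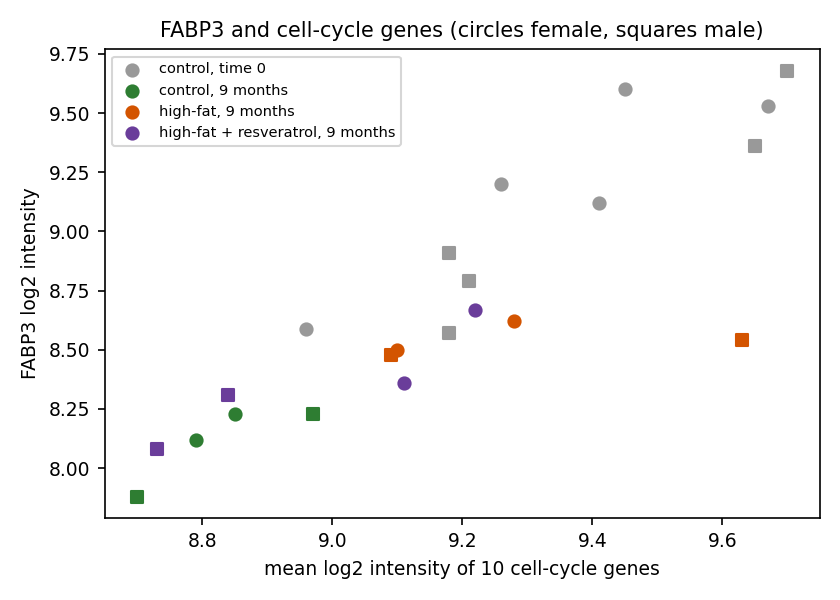
FABP3 log2 intensity on each array against the mean log2 intensity of 10 cell-cycle genes, coloured by condition, with females as circles and males as squares. FABP3 rises with the list at time 0 (r = 0.89, n = 10) and at 9 months (r = 0.83, n = 12), and high-fat male 23 lies to the right of the other 9-month arrays at 9.63.

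The named genes most like FABP3 over the 22 arrays were CCNB1 (Pearson r 0.96), DNAJC9 (0.95), MTHFD1 (0.94), MELK (0.93) and KPNA2 (0.93), of which CCNB1 is on the cell-cycle list. After the means of condition and sex were subtracted they were MTHFD1 (0.94), DNAJC9 (0.92), CCNB1 (0.91), AURKA (0.91) and PYGM (0.90). CCNB1 averaged 8.67 at time 0, 7.61 in controls at 9 months, 8.12 on the high-fat diet and 7.70 with resveratrol. With Spearman's rho, 3 of the first 5 and 1 of the second 5 stayed in the top 5. PYGM is the glycogen phosphorylase of muscle; the mean of the 12 striated muscle markers, PYGM among them, lay between 4.71 and 5.01 on all arrays.

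FABP5, the epidermal form, moved opposite to FABP3 over time by its bright probe set. At time 0 the log2 intensity ran from 8.21 to 8.62, with a mean of 8.45 ± 0.13 (SD, n = 10). In the controls at 9 months it was 8.71 in female 18, 9.24 in female 8, 9.12 in male 16 and 8.85 in male 25. All 4 controls were above all 10 animals of time 0, which was so for 6.54% of tested probe sets. The difference was 0.53 (SE 0.11), a 1.44-fold higher intensity, with 0.55 (SE 0.15) in females and 0.51 (SE 0.15) in males. In the same pigs it was 0.86 in female 8 and 0.31 in male 25.

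The highest FABP5 values came from control female 8 and control male 16, which are also among the 3 arrays of lowest BioB. The third of those, resveratrol female 22, had 8.61, in the middle of its group. Without the 3 arrays the rise over time was 0.33. The controls that remained, female 18 and male 25, were still above every animal of time 0.

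On the high-fat diet the bright FABP5 probe set was 8.74 in female 27, 8.54 in female 30, 8.70 in male 23 and 8.59 in male 26. With resveratrol it was 8.49 in female 21, 8.61 in female 22, 8.57 in male 4 and 9.09 in male 5. Both diets overlapped the controls at 9 months. High-fat minus control was -0.34 (SE 0.13) and resveratrol minus control -0.29 (SE 0.13), which became -0.14 and -0.08 without the 3 arrays of lowest BioB. Resveratrol minus high-fat was 0.05 (SE 0.13). The order of the means was control at 9 months (8.98 ± 0.24, SD, n = 4), resveratrol (8.69 ± 0.27, SD, n = 4), high-fat (8.64 ± 0.10, SD, n = 4) and time 0, with resveratrol and high-fat closer than their own spread. The sexes did not differ detectably, with -0.06 (SE 0.12, limma adjusted p = 0.861) at time 0 and -0.10 (SE 0.11, limma adjusted p = 0.649) at 9 months.

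The dim FABP5 probe set did not repeat these differences. It averaged 5.09 ± 0.26 (SD, n = 10) at time 0, 5.02 ± 0.69 (SD, n = 4) in controls at 9 months, 4.80 ± 0.11 (SD, n = 4) in the high-fat group, and 4.67 ± 0.34 (SD, n = 4) where resveratrol was added, and all these groups overlapped. In the 9-month controls it split into 5.65 in female 8 and 5.56 in male 16 against 4.32 in female 18 and 4.53 in male 25. The 2 high values are again those of arrays of low BioB, but the third such array, resveratrol female 22, had 4.22, the lowest of all 22 arrays. Without the 3 arrays of lowest BioB, 9 months minus time 0 changed from -0.07 (SE 0.20) to -0.66, high-fat minus control from -0.22 (SE 0.23) to 0.37, resveratrol minus control from -0.35 (SE 0.23) to 0.36 and resveratrol minus high-fat from -0.13 (SE 0.23) to -0.01. The sex differences were -0.31 (SE 0.21, limma adjusted p = 0.494) at time 0 and -0.12 (SE 0.19, limma adjusted p = 0.777) at 9 months. With the spike-in set as a block the time 0 difference was -0.12.

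Over the 22 arrays the 2 FABP5 probe sets correlated at r = 0.27 and rho = -0.01, and at r = 0.61 once the means of condition and sex were subtracted. The files do not say which part of the transcript each covers. At time 0 the dim probe set correlated with the mean of 5 platelet markers at r = 0.83 (permutation p = 0.0018, adjusted p = 0.0475) and rho = 0.84 (permutation adjusted p = 0.0779), and leaving out the 2 farthest arrays gave r = 0.75. At 9 months r was -0.40 (permutation adjusted p = 0.447). Platelet markers were not alone at time 0: r was 0.80 with endothelial markers (permutation adjusted p = 0.0848) and -0.80 with keratinocyte markers (0.107). The lowest dim values of time 0 were 4.61 in female 10 and 4.69 in female 6, the arrays of high poly-A spike-ins at that time. The part of the spike-in level was not tested. As with FABP3, these p-values are no independent evidence.

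The named genes most like the bright FABP5 probe set were RFWD2 (Pearson r 0.81), MMP14 (0.80), STBD1 (0.80), GNPTAB (0.77) and FAM32A (0.76). With the means of condition and sex subtracted they were ALG2 (0.78), SNRPG (0.77), AASDHPPT (0.77), PAK1IP1 (0.77) and FAM32A (0.75). The dim probe set shared 0 of either 5. FABP3 and the bright FABP5 probe set correlated at r = -0.62 over all arrays and at 0.07 with the means subtracted, so their opposition lay between conditions and not between animals of a condition.

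Of the other intracellular lipid-binding proteins, those of liver, gut, brain and the retinoid carriers, none passed the filter. FABP1, the liver form, was at 2.79 to 3.38, FABP2, the intestinal form, at 2.56 to 2.89, and FABP7, the brain form, at 2.97 to 3.91. The retinoid-binding genes CRABP2, RBP2, RBP5 and RBP7 had highest values of 4.93, 4.84, 4.35 and 4.53. FABP9, FABP12, PMP2 and CRABP1 have no probe set under their symbol here and are not analysed.

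FABP6, the ileal bile acid binding protein, was the exception on 1 array. Its log2 intensity was 9.70 in high-fat male 23, while every other array had at most 4.03 (median of all arrays 3.70). This step of 5.68 was the largest of any of the 23999 probe sets on a single array. The other 7 steps above 3 log2 units were on the same array. They belonged to ARPP21 (4.07), the lipid antigen-presenting gene CD1E (3.63), 2 probe sets of NPG4 (3.14 and 3.09), the adipogenesis gene MEDAG (3.13) and 2 unnamed probe sets (4.20 and 3.17). FABP6 does not enter the tested set, because it exceeded log2 5 on 1 array.

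**Figure D4:**
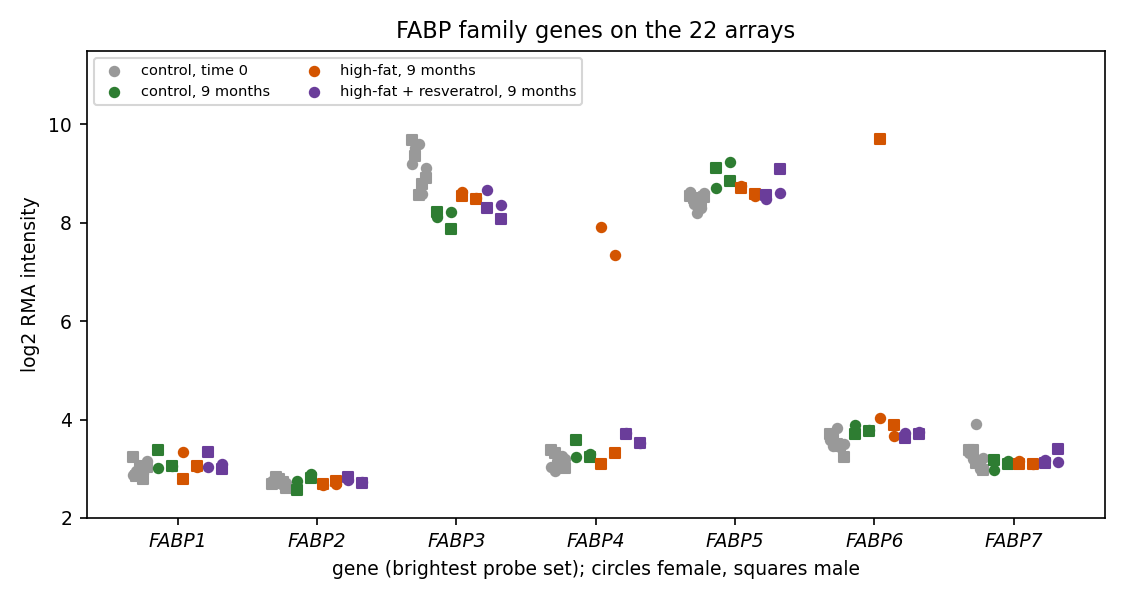
Log2 RMA intensity of the brightest probe set of FABP1 to FABP7 on each of the 22 arrays, coloured by condition, with females as circles and males as squares. FABP1, FABP2 and FABP7 stay below 4, FABP4 is raised in the 2 high-fat females, and FABP6 is raised to 9.70 in high-fat male 23.

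The genes around these proteins showed no diet calls in the fits reported. In lists for fatty acid uptake and activation, PPAR and RXR receptors, PPAR target genes, lipolysis and lipid droplets, and macrophage inflammation, 0 genes passed in high-fat against control, in resveratrol against high-fat or against control, or in the sex difference of the high-fat effect. High-fat minus control had list medians of -0.09, -0.03, 0.04, -0.08 and 0.18 in that order, beside -0.00 over all tested probe sets. Of 21 measured PPAR target genes, 12 were higher on high fat than in controls. Among them CPT1A and SLC25A20, picked after their values were seen, differed by more than the medians. CPT1A averaged 8.12 ± 0.15 (SD, n = 4) in controls at 9 months, 9.31 ± 0.28 on high fat and 9.18 ± 0.16 with resveratrol. SLC25A20 averaged 6.57 ± 0.09, 7.23 ± 0.29 and 7.20 ± 0.28 in the same order. The diet fit of condition plus sex takes into its spread the CPT1A split of time 0, 8.58 in females and 9.74 in males. With 8 group means, 18 of all tested probe sets passed for high-fat against control and 1 for each resveratrol comparison. Whether genes of these lists are among them is not given here. LPL, the lipase that frees fatty acids at the vessel wall and a PPARG target like FABP4, was picked after its values were seen. Its dim probe set was 7.07 in high-fat male 23, 5.24 in high-fat female 27, 4.22 in high-fat female 30 and 3.45 in high-fat male 26, and at most 4.27 on the other arrays. Its brighter probe set ran from 5.14 to 5.82 on all arrays.

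The counts over time, 9 months minus time 0 in controls, stand against 15.8% of all tested probe sets called higher and 19.1% called lower. Of the genes around the binding proteins, 0 of 13 measured genes of fatty acid uptake and activation rose and 2 fell (list median -0.02, all probe sets -0.01). ACSL5, which activates long-chain fatty acids, fell by 0.49 (SE 0.08, limma adjusted p = 9.43e-05). GOT2, a mitochondrial aminotransferase also known as a membrane fatty acid binding protein, fell by 0.21 (SE 0.07, limma adjusted p = 0.0193), and missed the threshold without control female 18 or control female 8 of 9 months (limma adjusted p = 0.0531 and 0.103), without the 3 arrays of lowest BioB (0.123) and with quantile normalization (0.0515). These 2 of 13 are close to the share over all probe sets. Of 8 PPAR and RXR receptors and coregulators, 0 rose and 2 fell (median -0.04). The coactivator NCOA1 fell by 0.30 (SE 0.06, limma adjusted p = 0.00111). The receptor PPARD fell by 0.34 (SE 0.13, limma adjusted p = 0.0398), a call lost in 8 of the 14 runs that each left out 1 array (limma adjusted p up to 0.115) and without the 3 arrays of lowest BioB (limma adjusted p = 0.0887) and with quantile normalization (0.0909).

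Of 21 measured PPAR target genes, 3 rose and 8 fell over time (median -0.15), beside 15.8% and 19.1% of all probe sets. CPT1A, the gate of fatty acid entry into mitochondria, fell by 1.04 (SE 0.18, limma adjusted p = 0.000172). It averaged 8.58 in females and 9.74 in males at time 0, and 8.04 and 8.20 in controls at 9 months. The carnitine carrier SLC25A20 fell by 0.82 (SE 0.13, limma adjusted p = 6.76e-05) and the beta-oxidation enzyme ACADM by 0.58 (SE 0.09, limma adjusted p = 5.69e-05). At 9 months, high-fat and resveratrol means were 9.31 and 9.18 for CPT1A, 7.23 and 7.20 for SLC25A20 and 10.39 and 10.20 for ACADM. The time 0 means were 9.16, 7.40 and 10.91. Of 14 genes of lipolysis and lipid droplets, 3 were called higher, 0 lower, and 11 did not pass (median 0.06). ABHD5, the coactivator of the lipase ATGL, rose by 0.92 (SE 0.10, limma adjusted p = 1.57e-06), and the lysosomal lipase LIPA rose by 0.46 (SE 0.13, limma adjusted p = 0.00964; 0.138 without the 3 arrays of lowest BioB). The droplet coat gene PLIN2 rose by 0.48 (SE 0.17, limma adjusted p = 0.0376), a call lost in 8 of 14 runs without 1 array (limma adjusted p up to 0.127), without the 3 arrays of lowest BioB (limma adjusted p = 0.423) and with array weights (0.265). In the inflammation list 0 of 10 rose and 2 fell (median -0.29). They were the mitochondrial deacetylase SIRT3, lower by 0.58 (log2 difference -0.58, SE 0.13, limma adjusted p = 0.00203), and STAT3, with -0.34 (SE 0.09, limma adjusted p = 0.00726). Both missed the threshold without the 3 arrays of lowest BioB (limma adjusted p = 0.169 and 0.187), and STAT3 also without control female 8 of 9 months (limma adjusted p = 0.0527).

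Markers of cell types moved with time too. The mean of the 11 T cell markers was 10.70 ± 0.13 (SD, n = 10) at time 0 and 10.17 ± 0.07 (SD, n = 4) in controls at 9 months, with no overlap between them. The 11 monocyte markers averaged 8.80 ± 0.22 and 9.17 ± 0.17 in those groups, which overlapped, and the 3 erythroid markers 10.24 ± 0.52 and 8.91 ± 0.63, which overlapped too. Their part in the changes of the pathway genes was not tested.

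Between the sexes at time 0, where 1.07% of all probe sets passed, 1 gene of these lists passed, CPT1A, lower in females by 1.16 (log2 difference -1.16, SE 0.10, limma adjusted p = 1.71e-06). At 9 months, on the mean over the 3 diets, 6.01% of all probe sets passed. ACSL4, another long-chain acyl-CoA synthetase, was lower in females (-0.43, SE 0.07, limma adjusted p = 0.00369) and kept its call in each run without 1 array. The beta-oxidation subunit HADHB (-0.25, SE 0.06, limma adjusted p = 0.0155), catalase, CAT (-0.32, SE 0.07, limma adjusted p = 0.0167), and LIPA (-0.48, SE 0.11, limma adjusted p = 0.0181) were lower too. Of the 12 runs without 1 array, 2, 3 and 4 lost these calls (limma adjusted p up to 0.0583, 0.063 and 0.068). HADHB lost it without control female 8 and resveratrol female 21. CAT lost it without control female 8, high-fat female 27 and high-fat male 23, and LIPA without high-fat female 27, high-fat male 23, resveratrol female 21 and resveratrol male 4. The remaining calls were NR1H3, the receptor LXR alpha (-0.39), PPARD (0.32), PLIN2 (0.39), the droplet genes CIDEB (-0.53) and PLIN3 (-0.34). Their limma adjusted p was 0.0346 to 0.0488, and each was lost in 8 to 10 of the 12 runs. With 1 sex term shared by all 22 arrays in place of the 9-month means, all 9 of these calls were lost (limma adjusted p = 0.214 to 0.998). Without the 3 arrays of lowest BioB, ACSL4 and LIPA kept theirs, while HADHB (limma adjusted p = 0.0901), CAT (0.129) and the other 5 (0.0512 to 0.305) lost them. The differences were not equal over the diets. In female and male controls ACSL4 averaged 10.59 and 10.55, against 10.21 and 10.70 on high fat and 9.94 and 10.77 with resveratrol. HADHB (10.57 and 10.62), CAT (10.41 and 10.46) and PPARD (7.80 and 7.82) were also close in controls. LIPA (11.84 and 12.11), NR1H3 (7.41 and 7.73), PLIN2 (8.30 and 7.98), CIDEB (8.12 and 8.63) and PLIN3 (7.43 and 7.76) were farther apart.

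Cell type markers differed between the sexes at 9 months as well. The mean of the monocyte markers was 9.09 in control females and 9.24 in control males, 8.49 and 8.89 on the high-fat diet, and 8.49 and 9.34 with resveratrol. The erythroid markers averaged 8.62 and 9.21, 8.51 and 10.30, and 8.42 and 9.89 in the same order, with 2 arrays in each group. Their part in the sex calls was not tested.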

How the data were processed

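Blood mononuclear cell RNA was hybridised to Affymetrix porcine arrays, 1 per pig and time. Per the submitters' processing notes, the authors worked with GCOS, RMA and Expression Console 1.1. Each deposited intensity is linear and was turned into log2 here with a floor of 1, and probe sets above log2 5 on at least 2 arrays were tested (17240 of 23999, 71.8%). RMA shrinks differences of dim probe sets.

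Groups came from the labels. Tests were two-sided with limma 3.58.1 in R 4.3.3 (statmod 1.5.0 for blocks), Benjamini-Hochberg adjusted at 0.05: condition plus sex over 22 arrays for diets and times, and 8 means of condition and sex for the sexes. The fit was tested on simulated data. The number of arrays limits the precision.

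Named genes were the members, the 5 genes most like each, the other lipid-binding proteins, and the up to 3 passing genes of smallest p per pathway list and comparison. Members and lists were chosen with earlier results of these data known. Pairing of pigs 8 and 25 rests on their labels. Their deviations from the group means correlated over probe sets at -0.056 and 0.199. Gene names came from the array annotation, checked against Sscrofa11.1, and no sequences were used here.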

Additional observations from a re-analysis of the deposited data

Results flagged for a closer look

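Among the 9-month controls, FABP4 in male 16 (3.59) lay apart from the other 3, with 0.839 of the group's range between it and its nearest neighbour. Of 20 groups of 4 to 10 arrays examined over the members, this was the 1 marked, and chance marks about 1 in 20. The value remains within the range of the trpn control probe sets, and the array is the one of lowest BioB (6.79). Their part in it was not tested.

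The high-fat difference of FABP4 was larger in females than in males by 4.57 log2 units (SE 0.25), from 2 arrays per diet and sex. It rests on high-fat females 27 and 30, both high, and on high-fat males 23 and 26, both low.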

How the results depend on the processing

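Counts of probe sets past the threshold moved with the fit. For high-fat against control (0 as reported) 8 group means gave 18, the compared arrays alone 2, array weights 68 and leaving out the 3 arrays of lowest BioB, an alternative chosen after seeing the data, 1; for each resveratrol comparison (0) 8 group means gave 1. The time count of 6026 became 3261 without the low BioB arrays. The sex count at time 0 (184) became 47 with an additive sex term, 43 on the compared arrays, 53 with the spike-in level as covariate, 25 with the spike-in set as block and 88 without the low BioB arrays; at 9 months (1036) it became 47 with the additive term and 241 without those arrays. The interaction count of 1 became 0 under the stricter filter (log2 above 6 on at least 4 arrays), which drops FABP4, and 2 without the low BioB arrays. The cause was not tested. Leaving out 1 array gave 4867 to 6087 for time, 38 to 395 and 319 to 1441 for the sexes at time 0 and 9 months, 0 to 18 for high-fat against control, 1 to 154 for the interaction and 0 to 0 for both resveratrol comparisons. With pig as a replicate block (consensus correlation -0.176 and -0.0181) the counts were 5828 for time, 184 and 1043 for the sexes, 1 for the interaction and 0 for each diet comparison, and no count moved by over 1.5 times.

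FABP3 kept its sign in every alternative for time (-1.13 to -0.94) and high-fat against control (0.36 to 0.53), the bright FABP5 probe set for time (0.33 to 0.61), and FABP4 for the interaction (3.15 to 4.86). The sign turned for FABP4 between the sexes at time 0 with the additive sex term (0.74), which pools the high-fat females, and over time (same sign in 22 of 24 alternatives, down to -0.01). For FABP3 it turned in the sex difference of the high-fat effect (17 of 19 same). The bright FABP5 probe set turned there (15 of 19), in resveratrol against high-fat (17 of 20) and once, to zero, between the sexes at time 0 (21 of 22). The dim one turned over time (21 of 24), in high-fat against control (16 of 19), in resveratrol against control (18 of 19), in the sex difference of the high-fat effect (16 of 18), and between the sexes at 9 months without control female 18 (0.10) or control male 16 (0.05; -0.34 to 0.10 over all runs without 1 array). It turned for PLIN2 between the sexes at 9 months with the additive term (-0.002). The spike-in set block could not be fitted for time, since no set holds both times, and the stricter filter gives no value for FABP4 and the dim FABP5 probe set. With 2 arrays per diet and sex, differences near the standard error could not be detected.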
